A study of Mus musculus with 4 samples.

Results

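The genes described here encode the proteins of the cytosolic ribosome. They were chosen by symbol alone, as the rows of the gene table named Rpl or Rps with a number and at most a short suffix (a, l, x, al or l1), together with Rplp0, Rplp1, Rplp2 and Rpsa. The rule took 84 of 23997 genes. Of these, 76 were canonical ribosomal protein genes, 46 of the large and 30 of the small subunit, and 8 were paralogues, of which GENCODE annotates Rps4l as a transcribed processed pseudogene. The rule used no measured value. It left out 4 of the 80 canonical genes, among them Fau, Gnb2l1 (now called Rack1) and Rps3a1, whose values are given as a comparison.

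The material was endothelial cells from the lungs of C57BL/6 mice, cultured in EBM-2 medium with 10% serum, and their RNA was sequenced. For 48 h the cells received a control siRNA or one that targets the glucocorticoid receptor (GR, encoded by Nr3c1), each without or with the synthetic glucocorticoid dexamethasone (DEX) at 100 nM for 18 h. All 4 groups therefore carried an siRNA, and the 2 groups without DEX were otherwise untreated as far as the labels say. The series design states triplicates, but the table holds 1 column per condition, so no value here has a replicate error, no p-value was calculated, and every difference is between 2 columns with no replicate check. The values are FPKM, a fragment level scaled for transcript length and library size, so that genes can be set side by side. Lists of 4 values keep 1 order throughout: first the control siRNA without and then with DEX, next the GR siRNA without and then with DEX.

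The targeted gene followed the labels, since Nr3c1 stood at 14.4, 14.3, 5.45 and 5.32 FPKM. All 10 of 10 endothelial markers were at or over 1 FPKM in every column, with summed values of 2222 to 2542 FPKM. None of 6 fibroblast and mural markers and none of 4 epithelial markers reached 1 FPKM in all columns, while 1 of 4 leukocyte markers did and 2 of those 4 were listed at 0 throughout. The total number of fragments is unknown. From the ratios of the lowest values between columns, the columns had relative depths of 0.671, 0.962, 1 and 0.811, so the GR siRNA column was the deepest.

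The ribosome joins a large subunit, which forms peptide bonds and threads the new chain through an exit tunnel, to a small subunit, which reads the mRNA. Both sets of proteins are needed in matched amounts, and their mRNAs are among the most abundant in growing cells. Nearly all of these mRNAs are known to begin with an unbroken run of pyrimidines at the cap (the 5′ terminal oligopyrimidine motif), through which the mTORC1 kinase and the RNA-binding protein Larp1 control their translation and stability together. The glucocorticoid receptor is a hormone-activated transcription factor.

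Start-site windows of 30 bases are shown for 7 members, to make such a run visible. They were picked from the 16 members with a run of at least 8 bases and do not stand for all members. Others, such as Rpl14, Rpl35 and Rpl7a, had no run beginning within 5 bases of the annotated start. Their windows held runs of C or T that begin further upstream and reach across the start, which were not counted. The windows shown are RefSeq sequence of GRCm38.p6, read 5′ to 3′ on the coding strand. Each has 10 bases before and 20 bases from the annotated first transcribed base. Capitals mark the longest unbroken run of C or T that begins within 5 bases of that start. Rpl27a lies at chr7:109519185-109519214 (plus strand), Rpl15 at chr14:18270967-18270996 (minus), Rps10 at chr17:27635225-27635254 (minus), Rps18 at chr17:33955646-33955675 (minus), Rps6 at chr4:86857348-86857377 (minus), Rplp2 at chr7:141447641-141447670 (plus) and Rps27 at chr3:90213629-90213658 (minus).
Rpl27a: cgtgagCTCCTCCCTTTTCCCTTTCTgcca
Rpl15: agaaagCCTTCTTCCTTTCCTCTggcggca
Rps10: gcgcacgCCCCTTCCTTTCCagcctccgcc
Rps18: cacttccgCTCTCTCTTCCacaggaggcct
Rps6: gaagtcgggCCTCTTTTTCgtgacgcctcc
Rplp2: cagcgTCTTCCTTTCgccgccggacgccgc
Rps27: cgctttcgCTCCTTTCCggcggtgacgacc

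Promoter sequences were given for 63 members, 60 of which reached 1 FPKM. A run of at least 8 pyrimidines was found in 16 of those 60 (26.7%), against 5.9% of 8514 other genes at or over 1 FPKM and 5.69% of all 27025 genes given. A run of at least 5 was found in 25 members (41.7%), against 26.5% of the other genes at or over 1 FPKM. The run was searched on the coding strand only. The count depends on the exact base annotated as the start. A run that begins more than 5 bases before that base was not counted, even where it reaches across the start, as in Rpl14, Rpl35 and Rpl7a. The shares are therefore of runs that begin near the annotated start, and a window without one can still hold such letters.

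Ribosomal protein mRNAs made up 17.6%, 17.9%, 16.3% and 17.8% of each column's total FPKM. The 84 genes summed to 99691, 101356, 87615 and 98896 FPKM. On the deposited scale the GR siRNA column was the low one of the 4, and the other 3 lay close together. With each column rescaled to its upper quartile, the sums were 95446, 103703, 88397 and 100198. GR siRNA was still the lowest, but the other 3 lay further apart, with control siRNA the lowest of them. Between GR siRNA and control siRNA without DEX the sum was 12.1% smaller (a signed change of -12.1%), while all other genes together differed by -3.55%. With DEX in both arms the corresponding changes were -2.43% and -1.56%. The large-subunit members summed to 54023, 54601, 48321 and 52823 FPKM, and the small-subunit members to 44675, 45769, 38411 and 45080 FPKM. Part of the small-subunit difference was Rps27 alone, described further on, whose value stood on a near-identical copy in the GR siRNA column. Without Rps27 the small-subunit sum differed by -9.51% between GR siRNA and control siRNA, close to the large-subunit value of -10.6%. In bulk RNA, fewer cells of a type and less RNA per cell cannot be told apart.

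**Figure D1:**
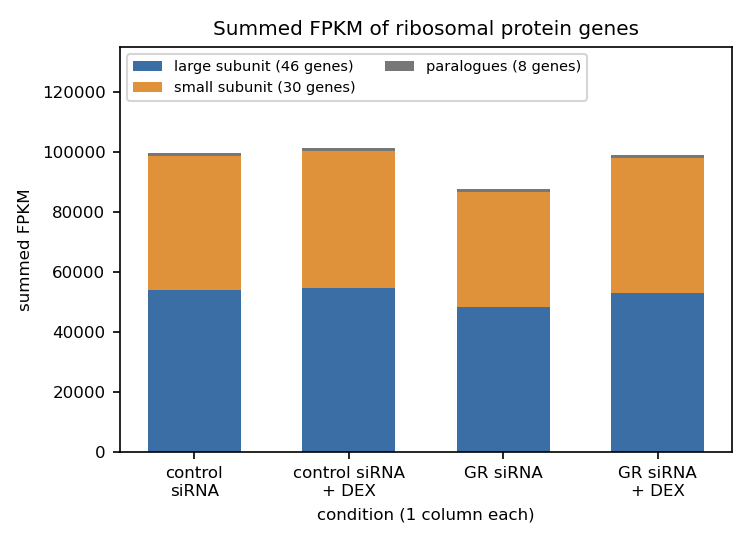
Summed FPKM of the ribosomal protein genes in each condition, as stacked bars from 0 for the large subunit (46 genes), small subunit (30 genes) and paralogues (8 genes), with 1 column per condition and no error. The GR siRNA bar is at 87615 FPKM and the other 3 lie between 98896 and 101356.

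Of the 84 members, 80 reached 1 FPKM and were described further. The 4 others were paralogues. Rpl10l, Rpl39l and Rps4l were listed at 0 in all 4 columns, and Rpl3l, a paralogue of Rpl3 known from muscle, was at 0.16 to 0.23 FPKM. All 76 canonical members were at or over 1 FPKM in every column. The median member stood at 1058, 1080, 956 and 1053 FPKM, and 46, 47, 40 and 45 members reached 1000 FPKM.

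By the mean of the 4 columns the highest member was Rpl41, which encodes a very short basic protein of the large subunit, at 4146, 4356, 3632 and 3704 FPKM. It was closely followed by Rplp1, an acidic stalk protein, at 4276, 4220, 3517 and 3688 FPKM, which was the higher of the pair in control siRNA. Both were lower in both GR siRNA columns than in both control siRNA columns. Rps12, of the small subunit, stood at 3578, 3740, 3060 and 3415 FPKM, and Rps2, which lies at the mRNA entry, at 3528, 3632, 3268 and 3414 FPKM. Rps26, Rps15, Rpl38, Rpl32, Rps28 and Rps18 came next, each with more than 1000 FPKM in every column. At the low end, Rpl26 stood at 6.31, 7.65, 1.42 and 25.6 FPKM, Rpl30 at 63.0, 61.0, 41.0 and 60.03, and Rpl34 at 75.7, 80.4, 50.2 and 74.4. These 3 encode ordinary structural proteins, and in each case a processed pseudogene in the same table held more than 1000 FPKM. Rps15a, at 67.7, 65.9, 65.1 and 63.4 FPKM, was low with no such copy in the table.

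**Figure D2:**
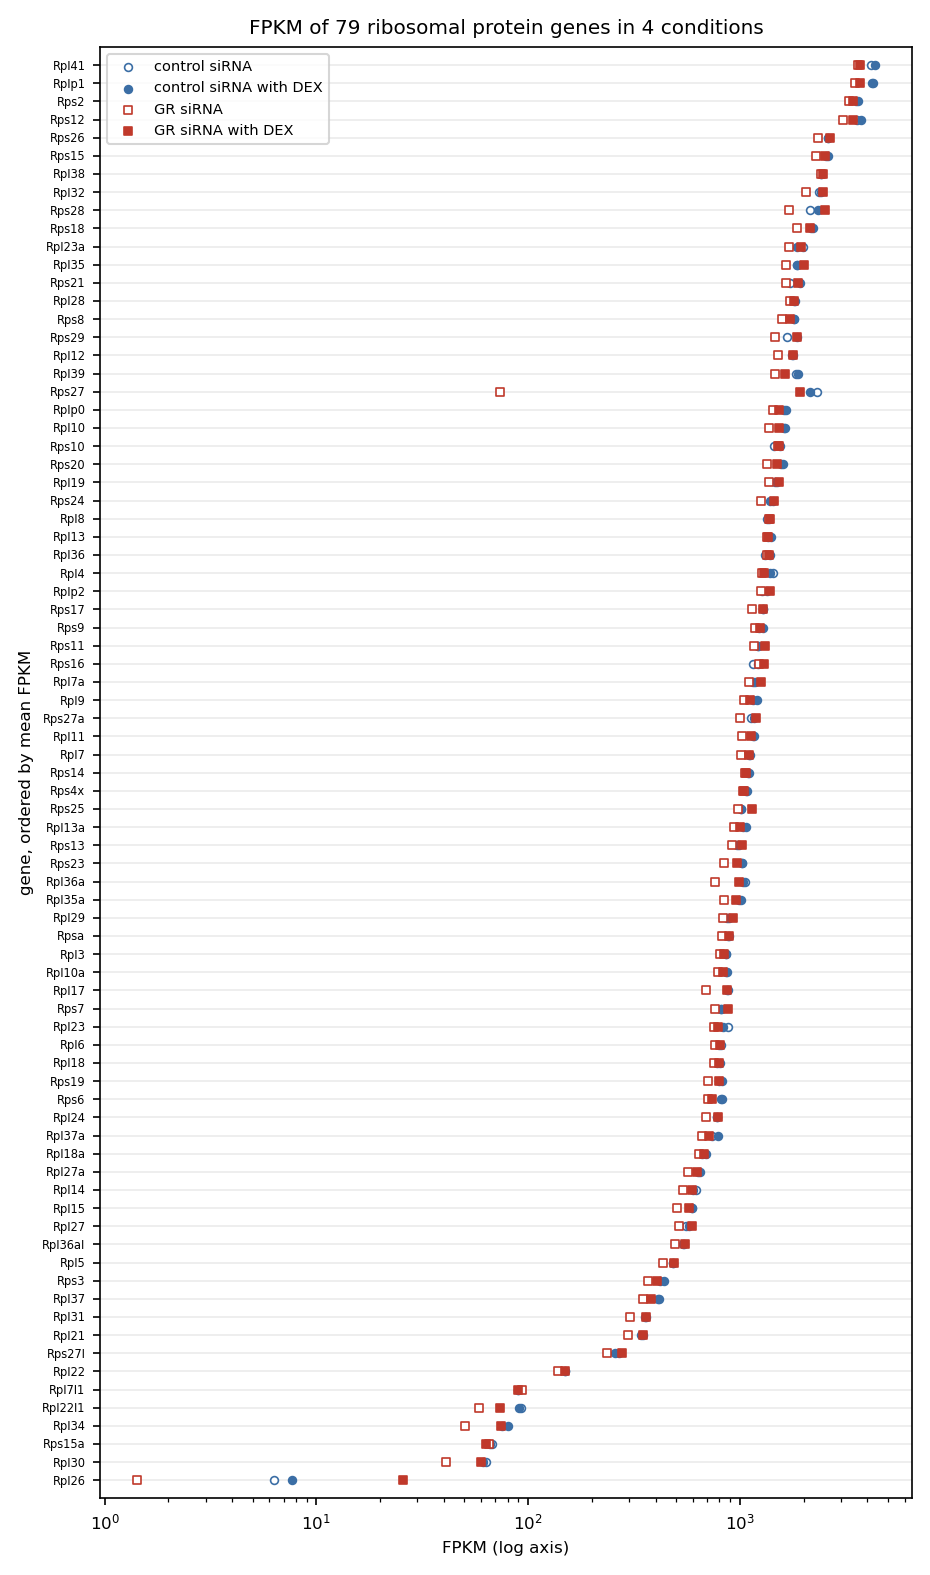
FPKM (log axis) of 79 of the 80 ribosomal protein genes that reached 1 FPKM, ordered by mean, with 1 symbol per condition. The open square of GR siRNA is the leftmost symbol for all but 7 genes, and Rps27 and Rpl26 are the genes with the widest spread.

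The GR siRNA column was the lowest of the 4 for 73 of the 80 members (91.25%), where 26.6% of the 11445 genes at or over 1 FPKM in some column had their lowest value there. Across all 4 columns the highest value exceeded the lowest by a median factor of 1.15. Without the GR siRNA column that factor was 1.05, and the members in which it reached 25% numbered 2 instead of 10. On the deposited scale, the members therefore varied little among the columns other than GR siRNA without DEX.

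GR siRNA was first compared with control siRNA in the absence of DEX. This asks how the cells differ with less Nr3c1 mRNA and no added hormone. Differences are on the log2(FPKM + 1) scale. Of the 80 members, 75 were lower with GR siRNA, against 52.8% of 11325 genes tested and 63.8% of the 962 genes of at least 100 FPKM on average. The median difference was -0.16, or -10.7%, against -0.01 over all genes tested. The large-subunit members had a median of -0.16 with 44 of 46 lower, and the small-subunit members also -0.16 with 28 of 30 lower. The shift was small and shared, since the middle 50% of the members lay between -0.22 and -0.08. At least 20% lower on this scale were 9 members, a share near the 8.86% of all genes, and at least 25% higher, the same ratio, were 0 (7.7% of all genes). Rps27 and Rpl26 were at least 2-fold lower (0.715% of all genes), and both share sequence with a copy. So do Rpl30 and Rpl34, which are also among the 9. Summed with their copies, Rpl26, Rpl30 and Rpl34 differed by -0.15, -0.18 and -0.24, each less than 20% lower, and Rps27 by -0.47.

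The scale of the columns bears on these counts. When each column was rescaled to its upper quartile, or to a common total, the median of all genes moved from -0.01 to 0.05 and 0.06, and 63 of 80 members were lower, with 38.9% of all genes lower under either scaling. The distance between the members' median and that of all genes was -0.14 under both rescalings. Rescaling moves all genes of a column by nearly the same amount, so this distance was bound to change little and is no check. Marker sums also differed between control siRNA and GR siRNA without DEX. The 10 endothelial markers summed to 2539 and 2282 FPKM. The 6 fibroblast and mural markers summed to 0.899 and 3.23 FPKM, mostly Dcn (0.387 and 1.99 FPKM). The leukocyte sum of 176 and 194 FPKM was almost wholly Cd68, with the defining markers Ptprc and Cd3e at 0, and the lymphatic sum of 373 and 191 FPKM was almost wholly Lyve1, with Prox1 at 0.18 and 0.12 FPKM. Their part in the result was not tested.

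The groups by role are given as a description, since 75 of all 80 members were lower. The stalk proteins and their base were all lower. Rplp1, which recruits elongation factors, differed by -0.28, Rpl12 at the stalk base by -0.23 (1767 against 1510 FPKM), Rplp0 by -0.17 (1609 against 1431 FPKM), and Rplp2, the partner of Rplp1, by -0.02 (1272 against 1255 FPKM). Rpl5 and Rpl11, which carry the 5S rRNA and can also bind the p53 regulator Mdm2, differed by -0.15 and -0.17. Around the peptide exit tunnel all 9 listed members, Rpl26 among them, were lower, with a median of -0.22. Rpl17 stood at 874, 877, 692 and 870 FPKM, and Rpl39, which lines the tunnel, at 1840, 1886, 1465 and 1634. Rpl17 was thus low in the GR siRNA column alone, while Rpl39 was low in both GR siRNA columns. Rpl23a, the docking point of the signal recognition particle, differed by -0.22 (1986 against 1710 FPKM), and Rpl4, Rpl19, Rpl22, Rpl31 and Rpl35 by -0.25 to -0.10.

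All 10 members of the decoding and mRNA channel group were lower, with a median of -0.14. Rps23, which acts in the accuracy of decoding, stood at 1030, 1023, 838 and 972 FPKM, a difference of -0.30. Rps28, at the mRNA exit, stood at 2147, 2332, 1714 and 2537 FPKM. Its GR siRNA value was the lowest of the 4 and its value with GR siRNA and DEX the highest. Rps2, Rps3, Rps9, Rps15, Rps25, Rps26 and Rpsa differed by -0.18 to -0.04. Rps6, the classical substrate of S6 kinase, stood at 828, 816, 708 and 737 FPKM. Rps27a, which is made as a fusion with ubiquitin, stood at 1136, 1173, 1002 and 1188 FPKM.

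Among members above 100 FPKM, the largest difference after Rps27 was that of Rpl36a, a large-subunit protein that shares 16.8% of its 31-base words with another gene of the table. It stood at 1064, 1033, 763 and 989 FPKM, a difference of -0.48. Its paralogue Rpl36al stood at 541, 547, 494 and 552 FPKM, a difference of -0.13. Rpl22l1, the paralogue of Rpl22, was at 92.7, 91.1, 58.6 and 73.8 FPKM, a difference of -0.65, where Rpl22 itself differed by -0.12. Rps27l, the paralogue of Rps27, was at 270, 259, 237 and 277 FPKM. The 5 members that were higher with GR siRNA (47.2% of all genes) were Rps16 (1152 to 1231 FPKM, 0.10), Rps10 (1458 to 1521 FPKM, 0.06), Rpl7l1 (0.06), Rpl8 (0.03) and Rpl36 (0.02). Rps16 had its lowest value in control siRNA and its highest in GR siRNA with DEX.

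Canonical genes that the symbol rule left out were also lower with GR siRNA without DEX. Rps3a1 stood at 1331, 1313, 1145 and 1216 FPKM, Fau at 1333, 1386, 1252 and 1314, and Gnb2l1, a scaffold on the small subunit, at 702, 718, 589 and 577. Rps3a1 and Fau had their lowest value with GR siRNA alone, and Gnb2l1 was low in both GR siRNA columns. With DEX in both arms Gnb2l1 differed by -0.314 between GR siRNA and control siRNA, where the lowest member was at -0.301. With DEX in GR siRNA cells it differed by -0.03, unlike most members, which were higher. Among 18 members whose human counterparts are mutated in Diamond-Blackfan anaemia, an inherited failure of red cell production, 17 were lower without DEX and 8 were lower with DEX in both arms, with medians of -0.18 and 0.01, beside 75 and 47 of all 80 members.

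**Figure D3:**
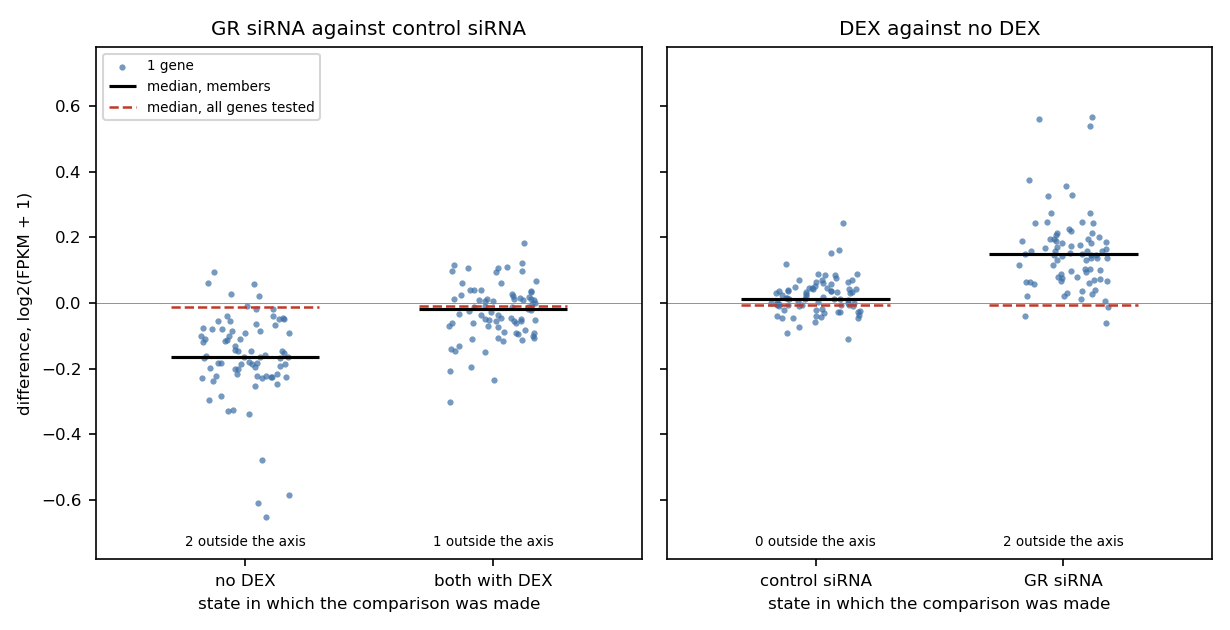
Differences on log2(FPKM + 1) for each ribosomal protein gene (points), with the members' median (black line) and the median of all genes tested (dashed line), for GR siRNA against control siRNA on the left and DEX against no DEX on the right, and the number of genes beyond the axis printed below. The members' median is -0.16 and 0.15 in the comparisons that contain the GR siRNA column and within 0.02 of 0 in the others.

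The same siRNA comparison was made with DEX in both arms, from the other 2 columns. Here 47 of 80 members were lower (51.8% of 11344 genes, and 52.8% of those of at least 100 FPKM), with a median of -0.02 against -0.01 over all genes. No member was at least 20% lower (8.69% of all genes), and 1, Rpl26, was at least 25% higher (7.78%). The direction of the median was not fixed by these columns, since 57 members were lower after upper-quartile rescaling and 38 after rescaling to a common total. The largest differences were those of Rpl22l1 at -0.30, Rpl41 at -0.23, Rpl39 at -0.21 and Rplp1 at -0.19. On the other side stood Rps25 at 0.18 (1011 against 1147 FPKM), Rps28 at 0.12 and Rpl7a at 0.11. Both siRNA comparisons placed 45 of the 80 members lower with GR siRNA (56.25%, against 41.7% of 11224 genes) and 3 higher (3.75%, against 36.9%). The other 32 members differed in opposite directions, as did 2408 of the 11224 genes. With 75 and 47 of 80 members lower, a large overlap was bound to arise. The 45 members are therefore no measure of agreement between the states. The siRNA comparisons share no column.

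DEX was compared with no DEX in control siRNA cells, where the siRNA did not target the receptor. Of the 80 members, 51 were higher (47.4% of 11227 genes, and 53.5% of those of at least 100 FPKM) and 29 lower (52.6%), with a median of 0.01. No member was at least 25% higher (1.02% of all genes) or at least 20% lower (0.882%). After upper-quartile rescaling, which moved the median of all genes to 0.08, 1 member was lower. The small-subunit protein Rps21 stood at 1726 without and 1929 FPKM with DEX, and Rps29 at 1674 and 1862, differences of 0.16 and 0.15. Rpl26 differed by 0.24 at its low level. Rps27 differed by -0.11 and Rpl23a by -0.09.

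In GR siRNA cells, 77 of 80 members were higher with DEX (48.1% of 11310 genes, and 64.3% of those of at least 100 FPKM), with a median of 0.15, or 11.0%, where all genes had a median of -0.0047. The summed FPKM was 12.9% larger with DEX, and that of all other genes 1.75% larger. Part of this was Rps27, whose value stood on its copy in the GR siRNA column. With the near-identical copies described below added to the members, the changes were 10.9% and 2.02%. Without Rps27, Rpl26, Rpl30 and Rpl34 they were 10.7% and 2.17%. At least 25% higher were 9 members (1.26% of all genes). These were Rps27, Rpl26, Rps28, Rpl34, Rpl30, Rpl36a, Rps29, Rpl17 and Rpl22l1. Rps27, Rpl26, Rpl34 and Rpl30 each share sequence with a copy, described below. Summed with that copy they differed by 0.28, 0.19, 0.30 and 0.02, each less than 25% higher. Rps28 differed by 0.57, Rpl36a by 0.37, Rps29 (1459 against 1869 FPKM) by 0.36 and Rpl17 by 0.33. The 3 members that were lower (51.9% of all genes) were Rpl7l1 (-0.06), Rps15a (-0.04) and Rps4x (-0.01). With each column rescaled to a common total, 11 members were lower, along with 69.2% of all genes. This comparison shares the GR siRNA column with the siRNA comparison without DEX, so a low value in that column enters both.

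The difference between the DEX differences (GR siRNA less control siRNA) was above 0 for 72 of 80 members (50.6% of 11445 genes, and 62.1% of those of at least 100 FPKM), with a median of 0.13. In 8 members the DEX ratios differed by at least 25% (2.35% of all genes). Among these were Rps27, Rpl26, Rpl30 and Rpl34, the members that share sequence with an abundant copy. The smallest values were those of Rps10 (-0.08), Rpl7l1 (-0.05), Rpl41 (-0.04) and Rpl36 (-0.04). Rpl41 and Rplp1, the most abundant members, thus had DEX differences in GR siRNA cells of 0.03 and 0.07, smaller than the members' median.

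In 4 members, the value of the gene itself could not be read apart from that of a copy. Rps27, a small-subunit protein encoded at chr3:90212522-90213651 (mm10, minus strand), stood at 2309, 2143, 73.6 and 1930 FPKM. Rps27rt, a coding gene derived from it, which lies at chr9:114982366-114982739 (minus strand), stood at 45.7, 99.6, 1623 and 125 FPKM. The copy held 1.94%, 4.44%, 95.7% and 6.07% of the pair's sum, so nearly all of the signal sat on the other gene in the GR siRNA column. The pair summed to 2355, 2242, 1696 and 2055 FPKM, and the sum differed by -0.47 between GR siRNA and control siRNA without DEX and by -0.13 with DEX. The coding sequences of the pair, in the GENCODE M21 annotation of mm10, are 252 bases long and differ at 0 bases, which is why the sequence is shown once for both, without capitals since no base sets them apart.
Rps27 and Rps27rt: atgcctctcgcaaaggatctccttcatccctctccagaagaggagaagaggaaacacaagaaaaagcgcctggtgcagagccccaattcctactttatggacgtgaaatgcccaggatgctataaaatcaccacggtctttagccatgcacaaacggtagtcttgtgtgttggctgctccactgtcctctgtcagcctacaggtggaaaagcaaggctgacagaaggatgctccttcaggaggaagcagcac

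The other 3 pairs were split the other way. Gm15772, a processed pseudogene at chr5:3236431-3236868 (plus strand) that matches Rpl26, stood at 1419, 1414, 1282 and 1434 FPKM. Gm12191 at chr11:49678710-49679057 (minus strand), which matches Rpl30, stood at 1756, 1776, 1564 and 1569 FPKM. Rpl34-ps1 at chr6:71124610-71124963 (plus strand) stood at 1270, 1270, 1086 and 1322 FPKM. Each pseudogene was at the level usual for a ribosomal protein gene, and each parent gene far below it. As pairs they differed by -0.15 (Rpl26), -0.18 (Rpl30) and -0.24 (Rpl34) between GR siRNA and control siRNA without DEX, close to the members' median. The differences of the single rows, -1.59, -0.61 and -0.58, were larger. With the 4 copies added to the members, the summed FPKM differed by -10.6%, and without the 4 genes by -10.1%. By their 31-base words, 16 of the 80 members share over 10% of their sequence with another gene of the table and 75 with some annotated gene.

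**Figure D4:**
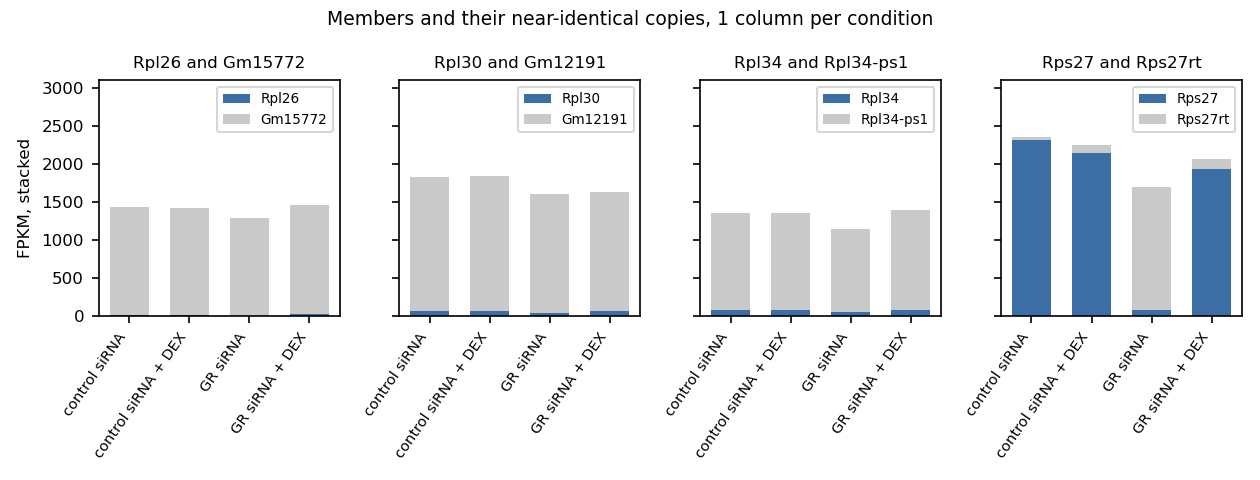
Stacked FPKM of 4 ribosomal protein genes (blue) and the near-identical copy of each (grey) in the 4 conditions, 1 column each, from 0. The Rps27 bar is 2309 FPKM in control siRNA and 73.6 in GR siRNA, where Rps27rt holds 1623, and in the other pairs the pseudogene holds most of the sum in every column.

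The members share several features that the rule did not use. Their median coding transcript was 703.5 nt long (367 to 3706), against 2152 nt for 10761 other coding genes at or over 1 FPKM. They lie on 19 chromosomes, and 29 of the 80 hold 1 or more small nucleolar RNA genes inside, 56 in all. Because the members are short, their differences were also set beside those of other abundant genes of like length. For GR siRNA without DEX, among genes of at least 100 FPKM with transcripts under 500 nt, the median was -0.19 in 14 members and -0.15 in 34 other genes. From 500 nt to below 700 nt it was -0.16 (21 members) and -0.11 (114 others), from there to below 1000 nt -0.14 (25) and -0.05 (195), and at 1000 nt and over -0.15 (14) and -0.02 (508). The members' medians were about level across lengths, while those of the other genes moved away from 0 as transcripts became shorter. For DEX in GR siRNA cells the shortest class had medians of 0.17 in members and 0.22 in the others, and the longest 0.14 and 0.00. The part of transcript length in the members' difference was not tested further.

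**Figure D5:**
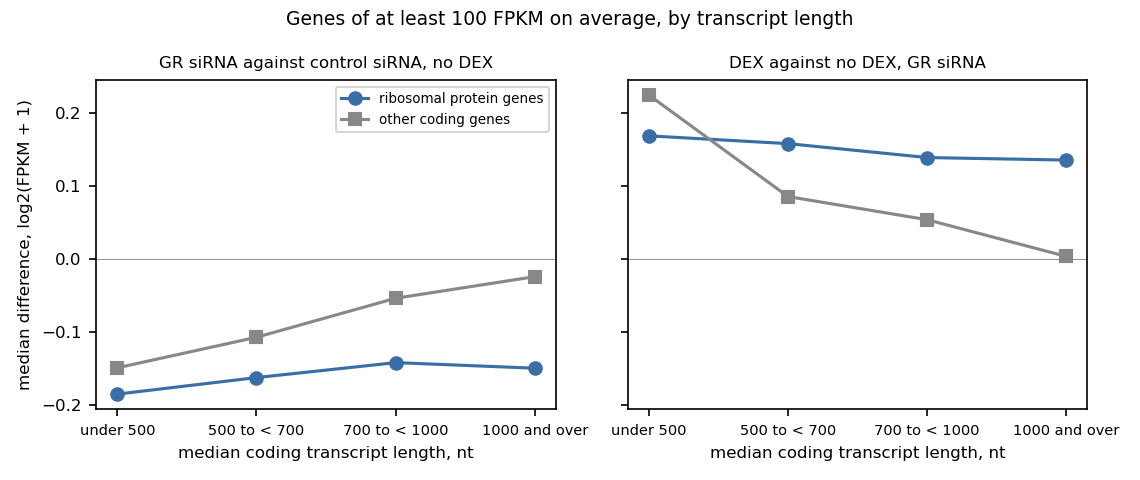
Median difference on log2(FPKM + 1) of genes of at least 100 FPKM by median coding transcript length (4 classes, nt), for ribosomal protein genes (circles) and other coding genes (squares). On the left (GR siRNA against control siRNA, no DEX) members lie between -0.19 and -0.14 in every class and other genes go from -0.15 to -0.02, and on the right (DEX in GR siRNA cells) the lines cross in the shortest class.

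Members with and without a counted run of at least 8 pyrimidines had like medians. The group without one includes Rpl14, Rpl35 and Rpl7a, whose runs across the start begin further upstream and were not counted. The split therefore does not separate members by the motif itself, and nothing about the motif follows from it. For GR siRNA without DEX the 16 members with a counted run of at least 8 pyrimidines had a median of -0.15. The 44 with a shorter counted run or none had -0.16. Among other genes of at least 100 FPKM the values were -0.08 (50 genes) and -0.04 (617 genes). Across 79 members without Rpl26, the difference and the transcript length had a Spearman coefficient of 0.14, and the difference and the mean level one of 0.03. These are descriptions over genes measured in the same 2 columns.

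Genes that work with the ribosome were taken from lists. Of 16 elongation factors and other mRNAs of the terminal oligopyrimidine class, 14 were lower with GR siRNA without DEX, with a median of -0.08, beside 52.8% of all genes and 63.8% of genes of at least 100 FPKM. Tpt1, a growth-related protein of this class, stood at 2785, 2775, 2352 and 2636 FPKM, and Hnrnpa1, an RNA-binding protein, at 170, 195, 128 and 185. Eef1a1, which brings tRNA to the ribosome, stood at 4379, 4337, 4211 and 4487 FPKM, and Eef2, the translocation factor, was higher, at 1140, 1135, 1269 and 1218. Of 25 initiation factors 13 were lower, a share like that of all genes, with a median of -0.01. Eif4g1, the scaffold of the cap-binding complex, stood at 149, 142, 101 and 93.7 FPKM, and Eif2s2 at 153, 145, 114 and 122, both low in both GR siRNA columns.

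Genes for assembling ribosomes were mostly higher with GR siRNA. Of 28 biogenesis genes, 23 were higher with GR siRNA without DEX (median 0.07) and 18 with DEX in both arms (median 0.09), where 47.2% and 48.2% of all genes were higher. Nat10, an rRNA acetyltransferase, stood at 17.4, 17.0, 22.5 and 21.2 FPKM. Nol6 stood at 16.9, 17.0, 21.4 and 19.3, Rrp9 at 24.4, 25.2, 30.5 and 29.8, and Bop1 at 40.6, 41.9, 50.2 and 51.0. All 4 were higher in both GR siRNA columns than in both control siRNA columns. Fbl, the methyltransferase of the nucleolus, stood at 132, 134, 146 and 148 FPKM.

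Of 17 regulators of mTORC1 and of these mRNAs, 8 were lower with GR siRNA without DEX (median 0.03) and 11 with DEX (median -0.11), beside 52.8% and 51.8% of all genes. Deptor, an inhibitor bound to the mTOR kinase, stood at 6.47, 6.31, 11.9 and 11.7 FPKM. Ddit4, another inhibitor of mTORC1 and a known glucocorticoid target, stood at 373, 440, 238 and 251 FPKM. These inhibitors therefore differed in opposite directions with GR siRNA, and each did so both without and with DEX. Larp1 stood at 41.0, 39.2, 41.9 and 37.4 FPKM, Mtor at 6.71, 6.29, 7.52 and 6.72, and Myc, a regulator of ribosomal genes, at 40.9, 38.8, 34.5 and 35.4.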

How the data were processed

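Total RNA of 4 conditions of cultured mouse lung endothelial cells was sequenced. The authors deposited gene-level FPKM, 1 column per condition; per the submitters' processing notes, TopHat2 (alignment) and Cuffdiff (quantification) were used on mm10. Versions, annotation, strand setting, and how replicates entered a column, were not given in the sources used here. Because FPKM keeps no read count, no interval or floor for counting error can be given, and fragments that fit several genes are divided by an estimate.

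Values were read with pandas 2.3.3 under Python 3.11.15. A gene entered a comparison if it had at least 1 FPKM in 1 of its columns. Differences were taken as log2(FPKM + 1), which understates those of low genes. They were counted at fixed ratios (25% higher or 20% lower, and 2-fold) beside all genes tested. The calculation was tested on simulated data. Annotation came from GENCODE M21, and 23605 of 23997 symbols matched. Shared sequence was measured by 31-base words. Named were the 10 highest and 5 lowest members, the largest differences on each side, the functional groups, copies, and up to 6 genes of each other list; a few more members were named after their values were seen. Some genes are not reported here by name. The members and lists were chosen with earlier results of these data known. Alternatives covered the pseudocount, the filter, 3 rescalings, short or shared sequence, and copies.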

Additional observations from a re-analysis of the deposited data

Results flagged for a closer look

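Members were looked at again where their difference pointed one way in one state and the other way in the second, by at least 0.1 on the log2(FPKM + 1) scale. None of these contrasts was tested, since each side is a difference between 2 columns. Rpl26 differed between GR siRNA and control siRNA by -1.59 without DEX and by 1.62 with DEX in both arms, at levels of 1.42 to 25.6 FPKM beside more than 1000 FPKM on its pseudogene Gm15772. Rpl7a, a large-subunit protein, differed by -0.10 and 0.11 (1182 against 1102 FPKM, and 1158 against 1253 FPKM). Rps28, with no shared words in the table, differed by -0.32 and 0.12. For DEX against no DEX, Rps27 differed by -0.11 in control siRNA cells and by 4.69 in GR siRNA cells. The sum of Rps27 and Rps27rt differed by -0.07 and 0.28 in those states.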

How the results depend on the processing

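No paired analysis was possible because the table has 1 column per condition, and for the same reason no replicate could be left out. Of 140 values recomputed under alternatives, 122 stayed within 1.5 times the reported value with the same sign. That number is no measure of robustness, since some alternatives could hardly move a result. The pseudocounts of 0.1 and 5 and the filter at 5 FPKM kept the same 80 members, most of them far above these values. The 122 include the members lower with GR siRNA, 63 instead of 75 without DEX under both rescalings. They also include 38 instead of 47 with DEX under the common sum, where most members were then higher. The scale of the columns moved most of the others, by construction. Upper-quartile rescaling gave member medians of -0.0875 (GR siRNA, no DEX), -0.0332 (GR siRNA, both with DEX), 0.11 (DEX, control siRNA, 1 member lower) and 0.0354 (difference between the DEX differences, 29 lower). Rescaling to a common sum gave -0.0882, 0.00582, which turned the direction, 0.1 for DEX in GR siRNA cells (11 lower) and 0.0752 for the difference between them (18 lower). On that scale the members summed to 175999, 178882, 162923 and 177580. Setting the median of all genes to 0 gave -0.0106 for GR siRNA with DEX in both arms. With fewer members, those under 10% shared words, 19 were lower with DEX in control siRNA cells. Without read counts, the precision of single low genes such as Rpl26 is unknown.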
